A study of Mus musculus with 11 samples.

Results

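The 10 genes described here encode antiviral effectors of membranes and nucleotide pools: the interferon-induced transmembrane genes Ifitm1, Ifitm2, Ifitm3 and Ifitm6, then Bst2 (tetherin), Rsad2 (viperin), Mx1, Mx2, Samhd1 and Ifi44. They were chosen by name, and their rows were found through the Ensembl identifiers that the GRCm38 annotation pairs with these symbols. All 10 were present among the 52636 genes listed and among the 17243 that passed the filter on low counts, so none was lost. The question was how high each gene stood without a challenge and how far it differed between genotypes.

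RNA of mouse fetal livers was sequenced at E15.5, with no treatment. WT embryos gave 3 livers, Tnfr1 KO embryos 2, Casp8 Mlkl dKO embryos 3 and Casp8 Tnfr1 dKO embryos 3, where KO is a knockout and dKO a double knockout. Casp8 encodes caspase-8, a protease that restrains necroptosis. Mlkl encodes the pseudokinase that carries out this lytic death, and Tnfr1 is a receptor for tumour necrosis factor. All alleles were germline nulls on a C57BL/6N background, so every cell of the embryo carried them. Casp8 was missing in both double knockouts and Tnfr1 in both Tnfr1 KO and Casp8 Tnfr1 dKO, and no single Casp8 knockout was included. Each sample was the liver of 1 embryo, and litters were not stated, so the p-values below measure only the spread between these livers.

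Interferons bind cell surface receptors and act through transcription factors that assemble on interferon-stimulated response elements in promoters. Genes switched on this way include proteins that block viruses at membranes and enzymes that starve or poison viral replication by acting on nucleotides. In the fetal liver, where blood cells are formed, many such genes are also expressed at a low level without infection.

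The stretches of promoter below are shown because they hold letters of the element that interferon uses (Ifitm2, Bst2 and Rsad2), or lack them before the start in genes with large differences (Ifitm6 and Ifi44). They come from RefSeq on GRCm38.p6, run 5′ to 3′ on the strand of the gene and end before its start in RefSeq. The annotation used for the gene positions below puts the starts of Ifitm2, Ifitm6 and Ifi44 further upstream. The stretches of Ifitm2 and Ifi44 thus lie partly, and that of Ifitm6 wholly, inside those gene bounds. Windows from 250 bases before to 50 bases after the start were on hand for 8 of the 10 genes. Capitals mark a match to GAAANNGAA, letters at the core of the interferon-stimulated response element, or to TTCNNNGAA, the core of a gamma-activated site, which reads the same on both strands. Both strands were searched, so the first also appears as TTCNNTTTC.
Ifitm2, chr7:140955962-140956041, minus strand: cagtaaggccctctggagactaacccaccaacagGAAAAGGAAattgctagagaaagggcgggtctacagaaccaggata
Bst2, chr8:71537563-71537642, minus strand: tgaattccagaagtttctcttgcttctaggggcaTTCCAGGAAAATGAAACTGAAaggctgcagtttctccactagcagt
Rsad2, chr12:26456523-26456602, minus strand: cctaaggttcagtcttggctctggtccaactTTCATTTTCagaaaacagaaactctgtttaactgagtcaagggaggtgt
Ifitm6, chr7:141016893-141016972, minus strand: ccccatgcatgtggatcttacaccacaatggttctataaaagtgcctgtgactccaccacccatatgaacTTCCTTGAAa
Ifi44, chr3:151749911-151749990, minus strand: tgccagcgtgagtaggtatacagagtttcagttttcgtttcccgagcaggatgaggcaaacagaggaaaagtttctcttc

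The response element letters were present in 5 of the 8 windows (Ifitm2, Ifitm3, Bst2, Rsad2 and Ifi44) and in 8.56% of all 32851 windows. In Bst2, 2 matches overlapped each other and the first of them also overlapped a gamma-activated match, which makes the unbroken run of capitals above. Ifitm3 had 2 matches after its start, at positions 3 to 11 and 20 to 28, and a gamma-activated match at 14 to 22 that overlapped the second. The match of Ifi44 spanned its start, from position -3 to 6, and so lies partly outside the stretch above. The gamma-activated letters were present in 4 windows (Ifitm3, Ifitm6, Bst2 and Samhd1) and in 8.3% of all windows, and neither motif was present in that of Ifitm1. A match describes these letters only. The search allowed no mismatch, so a window or stretch without a match can still hold a near match.

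The livers yielded between 23129212 and 35819339 counts, with a median of 25733946. Levels are given as CPM, which puts each gene's count on a library of common size after scaling by TMM, a factor that keeps libraries comparable despite a few very abundant genes. Casp8 Tnfr1 dKO replicate 3 and Casp8 Mlkl dKO replicate 1 stood apart, with TMM factors of 0.758 and 0.812 against 1.01 to 1.09 in the others. Casp8 Tnfr1 dKO replicate 3 had the only high Xist level, 3409 CPM against at most 0.57 CPM elsewhere. It had 109 counts on chromosome Y genes against 4161 to 7976 in the other livers, so its sex differed from theirs. Its 10 striated muscle markers summed to 1604 CPM against at most 33.7 CPM elsewhere. In Casp8 Mlkl dKO replicate 1 the 8 hepatocyte markers summed to 237000 CPM, against 53530 to 111600 CPM in the other livers, so hepatocyte RNA was abundant in every sample. Of the targeted genes, Casp8 lay at 7.82 to 21.9 CPM in the double knockouts and at 27.7 to 33.9 CPM in the other livers. Mlkl lay at 0.73 to 1.22 CPM in Casp8 Mlkl dKO livers against 4.23 to 4.46 CPM in WT and 13.3 to 24.6 CPM in Casp8 Tnfr1 dKO. Tnfrsf1a, which encodes TNFR1, was not lower in the livers labelled as lacking it: it was at 49.8 to 50.5 CPM in Tnfr1 KO and 76.0 to 425 CPM in Casp8 Tnfr1 dKO, against 47.1 to 53.4 CPM in WT. Counts summed over a whole gene do not show whether the deleted part is missing, so they did not check the Tnfr1 label of either genotype. Results are given with and without the livers that stood apart.

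All 10 genes rose in Casp8 Tnfr1 dKO livers relative to WT, with an adjusted p under 0.05 over all genes tested. The background was 5.1% of genes called higher in this comparison. Their log2 fold changes ran from 1.23 for Samhd1 to 6.07 for Ifi44 with a median of 3.50, while the median over all genes tested was -0.0015. Against Tnfr1 KO, which shares the Tnfr1 null allele, 7 of the 10 rose (background 2.05%), and the median log2 fold change was 3.67. Against Casp8 Mlkl dKO, which shares the Casp8 null allele, 6 of the 10 rose (background 1.54%), and the median was 2.74. These 3 comparisons share the same Casp8 Tnfr1 dKO livers and are not independent. In bulk tissue, a different number of expressing cells and a different amount of RNA per cell cannot be told apart.

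In each of these 3 comparisons, every Casp8 Tnfr1 dKO liver lay above every liver of the other genotype for all 10 genes. Over all genes tested the same separation was found for 19.5% against WT, 20.5% against Tnfr1 KO and 9.61% against Casp8 Mlkl dKO. Without both livers that stood apart, all 10 genes were called higher in each of the 3 comparisons, where the background became 17.8%, 13.9% and 12%. With only the 2 genotypes compared in the fit, 3 genes were called against Tnfr1 KO (background 0.316% called higher) and 0 against Casp8 Mlkl dKO (0.0612%), while the directions held. At an unadjusted p under 0.05 all 10 passed in all 3 comparisons in the fit of the 4 genotypes, as did 24.6%, 16.3% and 15.3% of all genes tested, in either direction. Without Tnfr1 KO replicate 1 or 2, 3 of the 10 were called against that genotype (background 0.158% and 0.2%), and without Casp8 Mlkl dKO replicate 2 again 3 against Casp8 Mlkl dKO (0.415%).

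**Figure D1:**
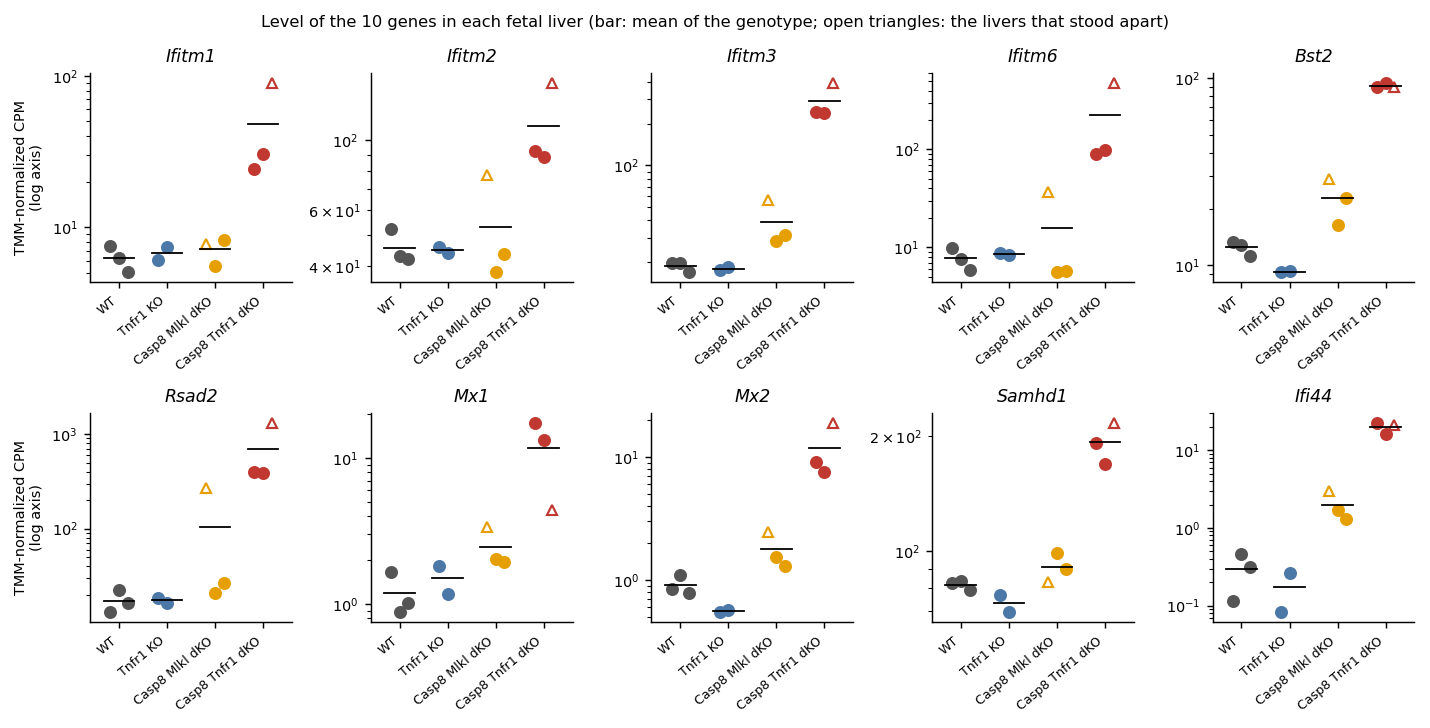
TMM-normalized CPM (log axis) of each gene in each of the 11 fetal livers by genotype, with a bar at the genotype mean and open triangles for the 2 livers that stood apart. All Casp8 Tnfr1 dKO livers lie above all other livers for each gene, Rsad2 and Ifitm6 spread widely in both double knockouts, and Mx1 is the gene for which Casp8 Tnfr1 dKO replicate 3 falls well below the other livers of its genotype.

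**Figure D2:**
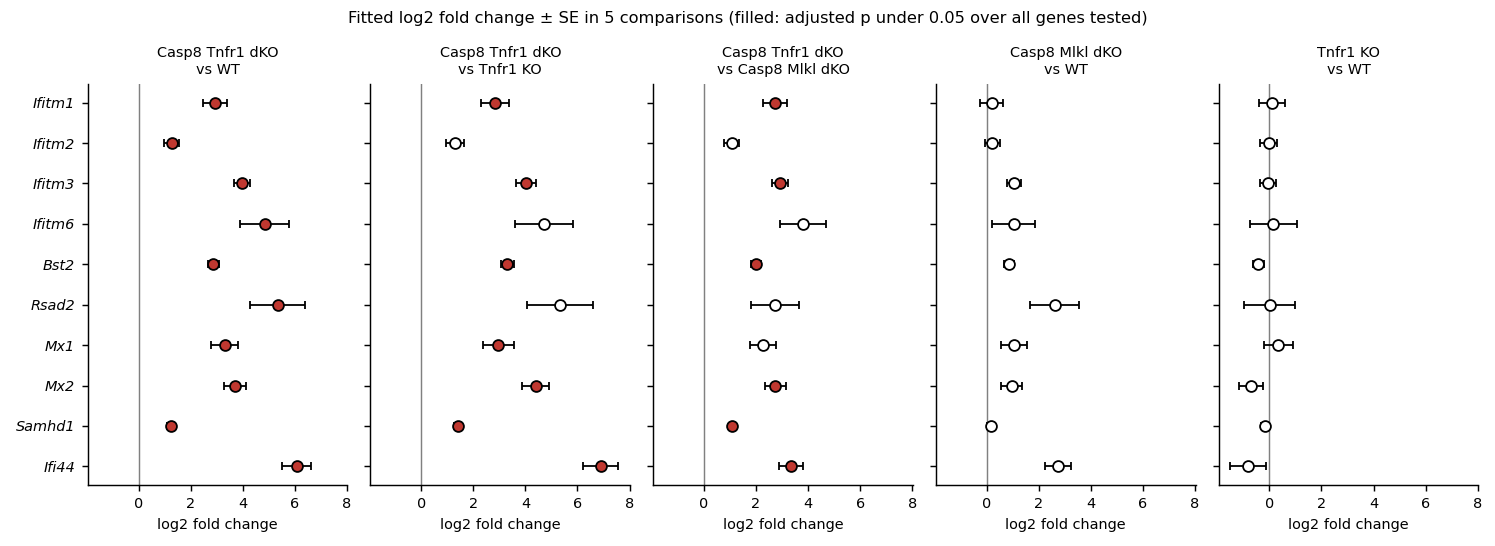
Fitted log2 fold change with its SE for the 10 genes in 5 comparisons, filled where the adjusted p over all genes tested was under 0.05. All 10 points are filled in the first comparison, 7 in the second, 6 in the third and none in the last 2.

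The IFITM proteins sit in cellular membranes and hinder the fusion of enveloped viruses with them. Ifitm2, Ifitm1, Ifitm3 and Ifitm6 lie in this order in a cluster on chromosome 7, from 140954837 to 141017924 (GRCm38). Ifitm3, the family member best known for restricting influenza virus, was at 19.7, 19.7 and 16.9 CPM in WT and at 17.6 and 18.4 CPM in Tnfr1 KO. It reached 56.3, 28.3 and 31.6 CPM in Casp8 Mlkl dKO and 245, 239 and 395 CPM in Casp8 Tnfr1 dKO. The double knockouts were separated from each other and from both other genotypes. Against WT its level was 15.6-fold higher in Casp8 Tnfr1 dKO (log2 fold change 3.96 ± 0.31 SE, n = 3 and 3 livers, adjusted p = 0.000125 by edgeR's quasi-likelihood test). The log2 fold changes were 4.03 against Tnfr1 KO (adjusted p = 0.000582, edgeR) and 2.92 against Casp8 Mlkl dKO (adjusted p = 0.00135, edgeR).

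Ifitm1, whose protein is found largely at the cell surface, stood higher in Casp8 Tnfr1 dKO livers. WT livers had 7.49, 6.25 and 5.05 CPM, Tnfr1 KO livers 6.07 and 7.37 CPM, and Casp8 Mlkl dKO livers 7.78, 5.55 and 8.26 CPM, and these 3 genotypes overlapped. Casp8 Tnfr1 dKO livers had 24.2, 30.4 and 90.2 CPM, all higher, with replicate 3 the highest. The log2 fold change was 2.94 ± 0.47 (SE) against WT (adjusted p = 0.0068, edgeR), 2.84 against Tnfr1 KO (adjusted p = 0.0282, edgeR) and 2.74 against Casp8 Mlkl dKO (adjusted p = 0.0194, edgeR). Without replicate 3 the value against WT was 2.13 and still called (adjusted p = 0.000562, edgeR), with 2.02 and 1.93 against the other genotypes. The call against Tnfr1 KO was lost in 6 of 19 alternative fits, among them those without WT replicate 1 or 2 or either Tnfr1 KO liver (adjusted p up to 0.386, edgeR), and that against Casp8 Mlkl dKO without Casp8 Mlkl dKO replicate 2 or 3.

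Ifitm2 had the highest level of the family in WT and the smallest difference. Its levels were 52.3, 42.9 and 42.1 CPM in WT, 45.8 and 44.0 CPM in Tnfr1 KO, 77.6, 38.2 and 43.7 CPM in Casp8 Mlkl dKO, and 92.1, 88.3 and 152 CPM in Casp8 Tnfr1 dKO. All Casp8 Tnfr1 dKO livers were higher than the rest, while the other genotypes overlapped. It was 2.42-fold higher than in WT (log2 fold change 1.27 ± 0.29 SE, adjusted p = 0.0333, edgeR). This call was lost on leaving out each WT or Tnfr1 KO liver in turn, with adjusted p between 0.0624 and 0.143. Against Tnfr1 KO (1.30 ± 0.33 SE, adjusted p = 0.0887, edgeR) and Casp8 Mlkl dKO (1.06 ± 0.29 SE, adjusted p = 0.118, edgeR) it was not called, but without Casp8 Mlkl dKO replicate 1 it was in both (adjusted p = 0.0219 and 0.0184).

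Ifitm6 showed the widest spread of the family between livers of 1 genotype. WT livers were at 9.76, 7.67 and 5.84 CPM and Tnfr1 KO livers at 8.73 and 8.43 CPM. Casp8 Mlkl dKO replicate 1 had 36.5 CPM, against 5.58 and 5.69 CPM in the other two, which were lower than every WT liver. In Casp8 Tnfr1 dKO the levels were 90.8, 100 and 480.5 CPM, again with a single liver far above its group. The log2 fold change against WT was 4.85 ± 0.94 (SE; adjusted p = 0.0163, edgeR). It was 3.63 without replicate 3 (adjusted p = 0.0141, edgeR), and leaving out each WT liver in turn gave adjusted p of 0.073 to 0.101, which lost the call. Against Tnfr1 KO (4.70 ± 1.11 SE, adjusted p = 0.0667, edgeR) and Casp8 Mlkl dKO (3.82 ± 0.89 SE, adjusted p = 0.0718, edgeR) Ifitm6 was not called with all livers. Without Casp8 Mlkl dKO replicate 1 both were called, at 4.70 and 5.31 (adjusted p = 0.0154 and 0.0131, edgeR). The call against Tnfr1 KO was also gained without Casp8 Tnfr1 dKO replicate 1 or 3 (adjusted p = 0.0488 and 0.0467). Without replicate 3 the values against Tnfr1 KO and Casp8 Mlkl dKO were 3.47 and 2.59.

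The make-up of the family differed along with its sum. Per kilobase of counted exon, Ifitm2 made up 60.2 to 64.1% of the summed CPM of the 4 genes in WT livers, and Ifitm3 made up 23.0 to 26.7%. In Casp8 Tnfr1 dKO livers Ifitm2 was at 16.2 to 22.5% and Ifitm3 at 40.8 to 57.9%, with no overlap with WT for either gene. Casp8 Mlkl dKO livers were in between, with 47.6 to 52.4% for Ifitm2 and 33.3 to 37.5% for Ifitm3, and both Tnfr1 KO livers lay within the WT ranges for these genes. The share of Ifitm6 reached 37.2% in Casp8 Tnfr1 dKO replicate 3 and 16.2% in Casp8 Mlkl dKO replicate 1, against at most 8.69% in WT and Tnfr1 KO livers. The sum of the 4 genes was 100.2 to 126.5 CPM per kb in WT, 111 to 249 in Casp8 Mlkl dKO and 624 to 1428 in Casp8 Tnfr1 dKO. These shares are a description, since 3 livers against 3 cannot give an exact permutation p under 0.1.

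**Figure D3:**
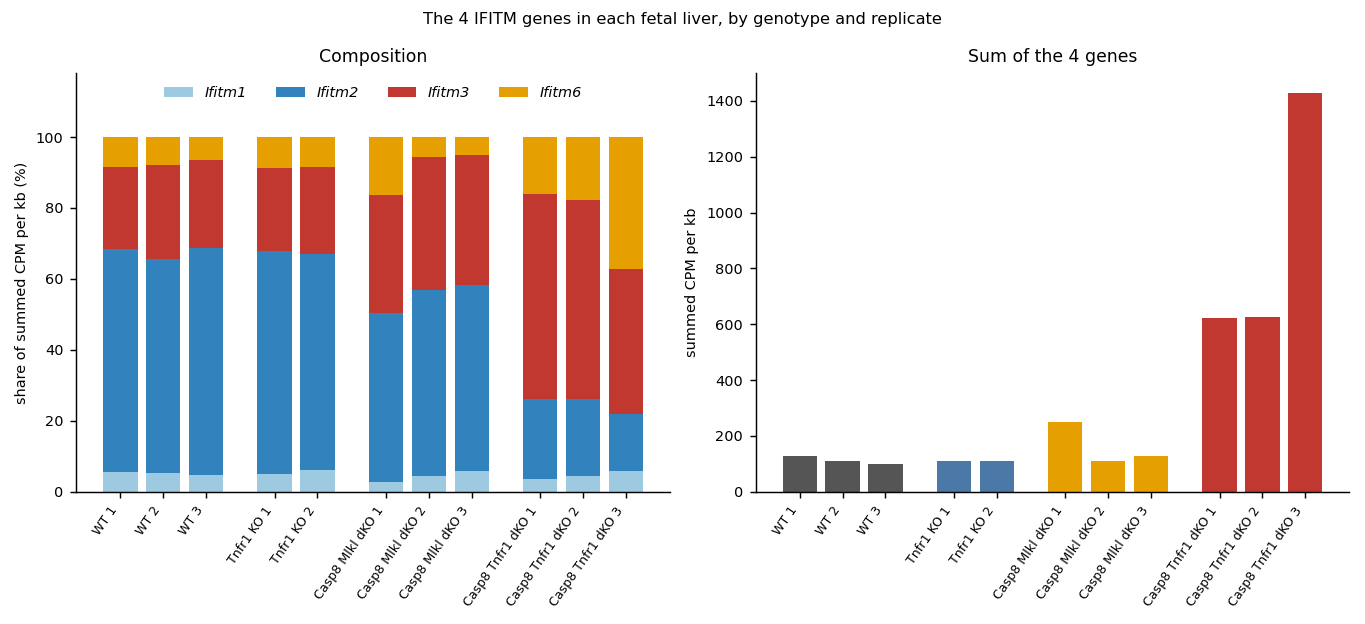
Share of Ifitm1, Ifitm2, Ifitm3 and Ifitm6 in their summed CPM per kilobase (left, %) and the sum itself (right) in each of the 11 livers. Ifitm2 holds the largest share in all WT, Tnfr1 KO and Casp8 Mlkl dKO livers and Ifitm3 in all Casp8 Tnfr1 dKO livers, where the sum is 624 or more.

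IFITM genes are close relatives, and how reads were divided among them is uncertain. Of the stretches of 50 bases in the annotated transcripts, the read length, 48.5% of those of Ifitm2 also occurred in another gene, mostly in Gm45717, a read-through transcript on the same strand that overlaps it. Gm45717 had 0 counts in every liver. The share was 10.02% for Ifitm3, 5.02% for Ifitm1 and 0 for Ifitm6. Among other relatives, Ifitm5, Ifitm7 and Ifitm10 had at most 64 counts in any liver and none was called in any comparison.

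Bst2 encodes tetherin, which holds budding virus particles at the cell surface, and in mice also marks plasmacytoid dendritic cells. The gene lies on chromosome 8 (71534255 to 71537456, minus strand). Its levels were the most even of the 10 within Casp8 Tnfr1 dKO, at 89.6, 94.8 and 90.0 CPM. WT livers had 13.3, 12.9 and 11.2 CPM, Tnfr1 KO livers 9.16 and 9.31 CPM, and Casp8 Mlkl dKO livers 29.0, 16.5 and 23.0 CPM. The 4 genotypes did not overlap and ranked in the order Tnfr1 KO, WT, Casp8 Mlkl dKO and Casp8 Tnfr1 dKO. The level was 7.34-fold higher in Casp8 Tnfr1 dKO than in WT (log2 fold change 2.87 ± 0.20 SE, adjusted p = 6.43e-05, edgeR). The log2 fold change was 3.31 ± 0.24 (SE) against Tnfr1 KO and 2.01 ± 0.19 (SE) against Casp8 Mlkl dKO (adjusted p = 0.000246 and 0.00112, edgeR). The 5 plasmacytoid dendritic cell markers summed to 1.93 to 2.56 CPM in Casp8 Tnfr1 dKO livers and 1.51 to 2.69 CPM in WT, and none of the 3 tested was called or had an unadjusted p under 0.05.

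Rsad2 encodes viperin, an enzyme that turns CTP into an analog that ends viral RNA chains. It lies on chromosome 12 (26442746 to 26456452, minus strand). Its levels were 13.1, 22.5 and 16.3 CPM in WT and 18.4 and 16.6 CPM in Tnfr1 KO. Casp8 Mlkl dKO livers had 268, 20.8 and 26.8 CPM, so that replicate 1 was 11.3 times the mean of the other two. Casp8 Tnfr1 dKO livers had 402, 386 and 1319 CPM, the last 3.35 times the mean of the other two. The log2 fold change against WT was 5.34 ± 1.05 (SE; adjusted p = 0.0173, edgeR). It was 4.52 without Casp8 Tnfr1 dKO replicate 3 (adjusted p = 0.0191, edgeR), and the omission of a single WT liver, whichever it was, lost the call (adjusted p of 0.0813 to 0.103).

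Rsad2 was not called against Tnfr1 KO (5.33 ± 1.25 SE, adjusted p = 0.0660, edgeR) or Casp8 Mlkl dKO (2.74 ± 0.93 SE, adjusted p = 0.207, edgeR). Without Casp8 Mlkl dKO replicate 1 the values were 5.33 and 4.89 and both were called (adjusted p = 0.00335 and 0.00596, edgeR), and that against Tnfr1 KO was also called without Casp8 Mlkl dKO replicate 2 (adjusted p = 0.0452). Without Casp8 Tnfr1 dKO replicate 3 the value against Tnfr1 KO was 4.50 (adjusted p = 0.0557, edgeR) and that against Casp8 Mlkl dKO 1.91 (adjusted p = 0.389, edgeR). Cmpk2, the mitochondrial kinase gene next to Rsad2 that faces away from it, lacked this spread. It was at 27.3 to 34.2 CPM in WT, 49.7, 36.2 and 35.4 CPM in Casp8 Mlkl dKO, and 152, 130 and 136 CPM in Casp8 Tnfr1 dKO. Cmpk2 rose against WT (log2 fold change 2.15 ± 0.17 SE, adjusted p = 0.000125, edgeR), against Tnfr1 KO (2.30) and against Casp8 Mlkl dKO (1.78).

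Mx1 and Mx2 encode dynamin-like GTPases that trap viral nucleocapsids, and many inbred mouse strains carry defective alleles. The annotation lists Mx2 as a polymorphic pseudogene. They are neighbours on chromosome 16, Mx1 at 97447035 to 97462907 (minus strand) and Mx2 at 97535308 to 97560900 (plus strand). Of their stretches of 50 bases, 4.37% and 4.38% were shared with another gene, mostly with each other.

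Mx1 was at 1.65, 0.88 and 1.03 CPM in WT, 1.83 and 1.18 CPM in Tnfr1 KO, 3.37, 2.03 and 1.95 CPM in Casp8 Mlkl dKO, and 17.5, 13.4 and 4.39 CPM in Casp8 Tnfr1 dKO. Replicate 3, the highest of its genotype for 7 of the 10 genes, was here the lowest, at 0.285 times the mean of the other two, from 77 counts against up to 573. The log2 fold change was 3.30 ± 0.52 (SE) against WT (adjusted p = 0.0065, edgeR) and 2.96 ± 0.60 (SE) against Tnfr1 KO (adjusted p = 0.0343, edgeR). The call against Tnfr1 KO was lost in 11 of 19 alternative fits, 9 of them without a single liver (adjusted p up to 0.451). Against Casp8 Mlkl dKO the value was 2.27 ± 0.49 (SE; adjusted p = 0.0558, edgeR), and without Casp8 Tnfr1 dKO replicate 3 it was 2.66 and called (adjusted p = 0.00266, edgeR).

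Mx2 was at 0.845, 1.09 and 0.789 CPM in WT, 0.547 and 0.570 CPM in Tnfr1 KO, 2.47, 1.54 and 1.30 CPM in Casp8 Mlkl dKO, and 9.15, 7.57 and 19.0 CPM in Casp8 Tnfr1 dKO. No genotype overlapped another, and Casp8 Tnfr1 dKO replicate 3 was the highest of all. Mx2 rose against WT (log2 fold change 3.70 ± 0.42 SE, adjusted p = 0.00107, edgeR), Tnfr1 KO (4.40 ± 0.52 SE, adjusted p = 0.00238, edgeR) and Casp8 Mlkl dKO (2.75 ± 0.40 SE, adjusted p = 0.00868, edgeR). The second call was lost without either Tnfr1 KO liver (adjusted p = 0.0818 and 0.0587) and the third without Casp8 Mlkl dKO replicate 2 or 3 (adjusted p = 0.0651 and 0.0615).

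Samhd1 encodes a hydrolase of deoxynucleotides that lowers their pool below what viral reverse transcription needs, and it is widely expressed in blood cells. The gene lies on chromosome 2 (157097533 to 157135265, minus strand). Levels were 82.7, 83.6 and 79.1 CPM in WT, 77.0 and 69.3 CPM in Tnfr1 KO, 82.9, 99.2 and 90.0 CPM in Casp8 Mlkl dKO, and 192, 169 and 217 CPM in Casp8 Tnfr1 dKO. The gene thus had a high level at the start and a small, even difference. It was 2.35-fold higher in Casp8 Tnfr1 dKO than in WT (log2 fold change 1.23 ± 0.13 SE, adjusted p = 0.000876, edgeR), with 1.40 ± 0.16 (SE) against Tnfr1 KO and 1.09 ± 0.13 (SE) against Casp8 Mlkl dKO (adjusted p = 0.00198 and 0.0043, edgeR). The call against Tnfr1 KO was lost without either Tnfr1 KO liver (adjusted p = 0.0547 and 0.0662).

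Ifi44, an interferon-induced gene for a cytoplasmic protein, is on chromosome 3 (151730922 to 151749960, minus strand) and went from near 0 to a clear signal. WT livers had 0.115, 0.461 and 0.316 CPM (3 to 11 counts), and Tnfr1 KO livers 0.0821 and 0.266 CPM (3 and 7 counts). Casp8 Mlkl dKO livers had 2.96, 1.71 and 1.30 CPM, and Casp8 Tnfr1 dKO livers 22.7, 16.4 and 21.0 CPM. Both double knockouts were separated from each other and from the remaining livers, which overlapped. The log2 fold change of Casp8 Tnfr1 dKO was 6.07 ± 0.54 (SE) against WT, 6.89 ± 0.68 (SE) against Tnfr1 KO and 3.33 ± 0.45 (SE) against Casp8 Mlkl dKO (adjusted p = 0.000294, 0.000971 and 0.00644, edgeR). The last call was lost without Casp8 Mlkl dKO replicate 2 (adjusted p = 0.0528). With 3 to 11 counts per liver in the low groups, the first 2 values rest on few reads, and that against Tnfr1 KO was 6.20 without Tnfr1 KO replicate 1 and 7.84 without replicate 2, called in both. Its close relative Ifi44l had 0 counts in all 11 livers.

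None of the 10 genes was called between Casp8 Mlkl dKO and WT (background 0.0058% of genes called higher), although 5 passed an unadjusted p under 0.05, as did 5.63% of all genes tested in either direction. All 10 log2 fold changes were positive, with a median of 0.996 against 0.028 over all genes tested. Every Casp8 Mlkl dKO liver was above every WT liver for Ifitm3, Bst2, Mx1, Mx2 and Ifi44, 5 of the 10, where 10.8% of all genes tested had this separation. The largest value was 2.73 ± 0.51 (SE) for Ifi44 (adjusted p = 0.216, edgeR), followed by 2.60 ± 0.93 (SE) for Rsad2. Ifitm3 (1.05 ± 0.28 SE), Mx1 (1.04 ± 0.50 SE), Ifitm6 (1.03 ± 0.82 SE), Mx2 (0.96 ± 0.40 SE) and Bst2 (0.87 ± 0.19 SE) lay close together, and Ifitm2 (0.22), Ifitm1 (0.20) and Samhd1 (0.15) were lower. DESeq2 called 2 of them, Bst2 and Ifi44 (background 0.458% of genes called higher), and limma-voom 0 (0.0058%).

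Casp8 Mlkl dKO replicate 1 bore unequally on these values. Without it, Rsad2 was at 0.46, Ifitm6 at -0.46 and Ifitm2 at -0.16, so that both of the latter turned direction. Ifi44 was at 2.34, Mx1 at 0.75, Ifitm3 at 0.68, Bst2 at 0.66, Mx2 at 0.65 and Samhd1 at 0.21, and none was called. For each of these, both remaining livers were above every WT liver, and the share of all genes with this separation was not counted. Without both livers that stood apart, Ifitm3 (0.68, adjusted p = 0.000663, edgeR), Bst2 (0.66, adjusted p = 0.00903, edgeR) and Ifi44 (2.36, adjusted p = 0.00543, edgeR) rose, where 3.23% of all genes were called higher.

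**Figure D4:**
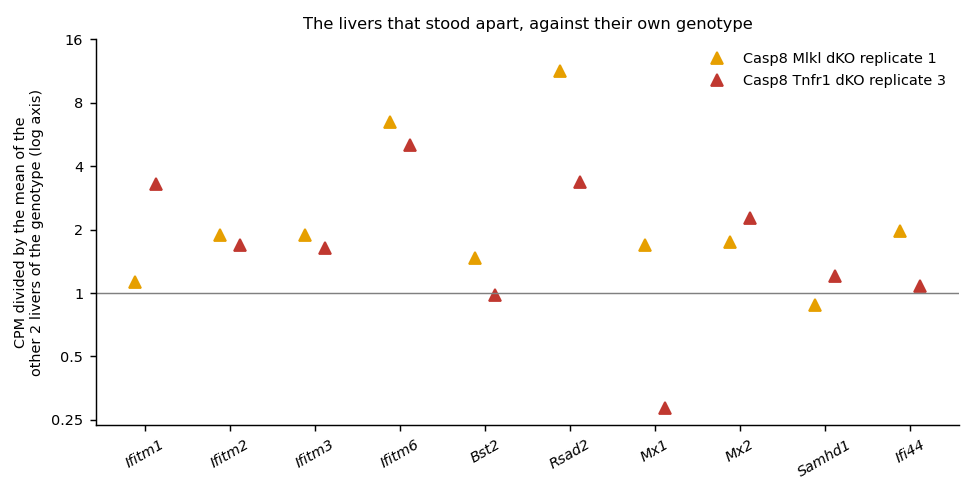
Level of each gene in Casp8 Mlkl dKO replicate 1 and Casp8 Tnfr1 dKO replicate 3, divided by the mean of the other 2 livers of the same genotype (log axis). In both livers Ifitm6 and Rsad2 lie above 3 and Ifitm2 and Ifitm3 between 1.64 and 1.9, whereas Mx1 is at 1.69 in the first and 0.285 in the second.

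Tnfr1 KO and WT livers were not separated by the test for any of the 10 genes (0 called, background 0%; edgeR), and 0 passed an unadjusted p under 0.05. DESeq2 and limma-voom called 0 as well. The log2 fold changes lay between -0.82 for Ifi44 and 0.35 for Mx1, with a median of -0.045. Both Tnfr1 KO livers were below all WT livers for Bst2, Mx2 and Samhd1, a separation found for 18.4% of all genes tested. For Bst2 the value was -0.43 ± 0.21 (SE) and for Mx2 -0.70 ± 0.47 (SE), and neither these nor the others show that the genotypes were alike, given 2 and 3 livers.

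Per kilobase, which allows levels of different genes to be compared, the order of the 10 genes differed between genotypes. In WT, Ifitm2 came first at 69.9 CPM per kb, followed by Ifitm3 at 27.7, then Bst2 at 15.7 and Samhd1 at 14.9, whose ranges over livers overlapped. Ifitm6, Ifitm1 and Rsad2 followed at 8.57, 5.72 and 4.57, each overlapping the next. Mx2, Mx1 and Ifi44 were the lowest at 0.375, 0.350 and 0.102, and Mx1 and Mx2 overlapped. In Casp8 Tnfr1 dKO, the mean over all 3 livers put Ifitm3 first at 432 CPM per kb, followed by Ifitm6 at 247, Rsad2 at 186, Ifitm2 at 169 and Bst2 at 115.5. There Ifitm1 was at 44.1, Samhd1 at 35.0, Ifi44 at 6.89, Mx2 at 4.91 and Mx1 at 3.47. The ranges of Ifitm3, Ifitm6, Rsad2 and Ifitm2 over the 3 livers overlapped from one to the next. Below Ifitm3, this order rested on replicate 3, one of the livers that stood apart. Over replicates 1 and 2 alone, Ifitm3 was at 356 CPM per kb, then Ifitm2 at 138, Bst2 at 116.5, Ifitm6 at 105 and Rsad2 at 104, followed by Samhd1 at 32.8, Ifitm1 at 24.9, Ifi44 at 6.73, Mx1 at 4.55 and Mx2 at 3.45. Ifitm6 and Rsad2 overlapped there.

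Genes of interferon signalling were read from a list of 22. The interferon genes on this list were at or near 0, and other interferon genes were not on it. Ifna2, Ifna4 and Ifnl3 had 0 counts in every liver, Ifnb1 and Ifnl2 at most 1 count and Ifng at most 3. A count of 0 allows up to 3. Of the 16 genes tested, 7 rose against WT (background 5.1%), 6 against Tnfr1 KO (2.05%) and 5 against Casp8 Mlkl dKO (1.54%), and none fell. Their median log2 fold changes were 0.71, 0.66 and 0.49. Against WT those that rose included Irf7, a factor that amplifies the response (4.67 ± 0.34 SE), Usp18, which dampens receptor signalling (4.29 ± 0.39 SE), Stat2 (2.13), Irf1 (1.89), Irf9 (1.88) and Ifngr2 (0.85). The receptor genes Ifnar1 (0.31, adjusted p = 0.201, edgeR) and Ifnar2 (0.40, adjusted p = 0.367, edgeR) and the kinase genes Jak1 (0.42, adjusted p = 0.197), Jak2 (-0.03) and Tyk2 (0.12) were not called.

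Irf7 did not overlap between the double knockouts or between either of them and the other genotypes. It was at 7.14 to 7.71 CPM in WT, 7.30 and 8.81 CPM in Tnfr1 KO, 46.4, 19.6 and 22.1 CPM in Casp8 Mlkl dKO, and 188, 156 and 227 CPM in Casp8 Tnfr1 dKO. Between Casp8 Mlkl dKO and WT 0 of the 16 were called by edgeR and limma-voom (background 0.0058% of genes called higher by each). DESeq2 called 3 (background 0.458%), while 5 had an unadjusted p under 0.05 by edgeR. Of all genes tested, 5.63% had such an unadjusted p in either direction. The largest value in the list was 1.97 for Irf7 (adjusted p = 0.112, edgeR). Between Tnfr1 KO and WT 0 were called and 0 had an unadjusted p under 0.05.

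Neutrophil and monocyte markers were higher along with these genes, while other lists of markers differed in direction. The part of cell types in the results was not tested. The 10 neutrophil markers summed to 1127 to 1637 CPM in WT, 1355 to 1385 CPM in Tnfr1 KO, 3433, 1309 and 1434 CPM in Casp8 Mlkl dKO, and 5279, 6523 and 14820 CPM in Casp8 Tnfr1 dKO. The livers highest for Rsad2 and Ifitm6 within each double knockout were also the highest for this list. They were likewise the highest for the monocyte, plasmacytoid dendritic, endothelial, hepatocyte and stromal lists, so this was not particular to neutrophil markers. Of the 10 neutrophil markers, 4 rose against WT (Ltf, Ngp, S100a8 and S100a9) and 1 against Tnfr1 KO. Against Casp8 Mlkl dKO 0 rose, and 6 had an unadjusted p under 0.05. The backgrounds of genes called higher were 5.1%, 2.05% and 1.54%, and 15.3% of all genes had such an unadjusted p in the last comparison. The 6 monocyte markers summed to 62.3 to 110.5 CPM in WT and 188 to 212 CPM in Casp8 Tnfr1 dKO, and 2 rose against WT (background 5.1%). The 12 macrophage markers ran the other way in sum, at 565 to 720 CPM in WT and 402 to 545 CPM in Casp8 Tnfr1 dKO. Of these 12, 3 had a positive log2 fold change, 1 was called higher and 2 lower (0.702% of all genes tested were called lower). Their sums in Casp8 Mlkl dKO were 1715, 712 and 779 CPM. The 8 endothelial markers summed to 380 to 753 CPM in Casp8 Tnfr1 dKO and 382 to 426 CPM in WT (1 higher), the 6 stromal markers to 806 to 4198 and 665 to 964 CPM, and the 8 erythroid markers to 23290 to 73520 and 34090 to 37920 CPM, with 0 called in either list (5 and 2 at an unadjusted p under 0.05). Of the hepatocyte and striated muscle markers 0 were called against WT and 1 and 10 had an unadjusted p under 0.05, and no defining marker of any list was at 0 in a genotype. Over all genes tested, 24.6% had an unadjusted p under 0.05 against WT. The neutrophil, monocyte, endothelial, erythroid, stromal and muscle sums were highest of all livers in Casp8 Tnfr1 dKO replicate 3. The hepatocyte and plasmacytoid dendritic sums were highest of its genotype there, and the macrophage sum was the lowest. Ifitm1, Ifitm2, Ifitm3, Ifitm6, Rsad2, Mx2 and Samhd1 were also highest of their genotype in that liver. They ran from 1.202 times the mean of the other livers of this genotype for Samhd1 to 5.038 times for Ifitm6. Bst2, Ifi44 and Mx1 were not the highest there (0.976, 1.07 and 0.285 times that mean). Whether cell make-up accounts for either pattern was not tested.

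**Figure D5:**
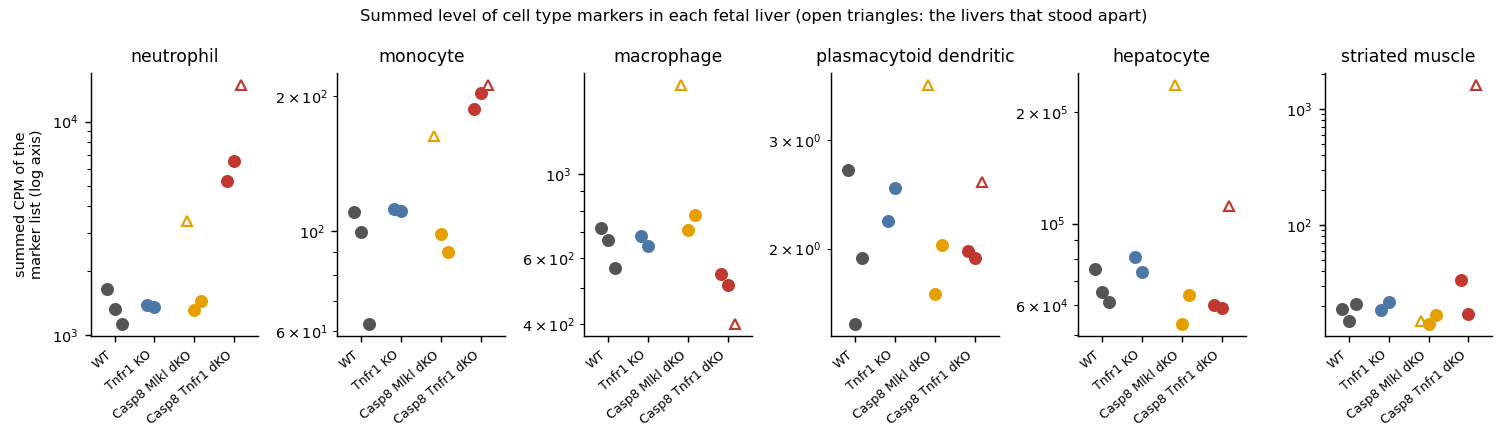
Summed CPM (log axis) of 6 lists of cell type markers in each of the 11 livers by genotype, with open triangles for the 2 livers that stood apart. The neutrophil sum is 5279 CPM or more in every Casp8 Tnfr1 dKO liver and at most 3433 CPM elsewhere, and the macrophage sum is at most 545 CPM there.

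The genes whose pattern over the 11 livers was closest to each of the 10 differed within the set. Closeness was the root mean square difference of log2 CPM after centring each gene on its mean, so that smaller is closer, and it is a description over livers that share genotype. Closest to Ifitm3 were Usp18 (0.203) and Sp100 (0.230), to Bst2 the RNA sensor genes Dhx58 (0.200) and Ifih1 (0.257), and to Mx2 Trim34a (0.227) and Xaf1 (0.267). Ifi44 was closest to Serpina3f (0.445) and the oligoadenylate synthetase gene Oas3 (0.583), and Mx1 to the GTPase genes Gm12250 (0.395) and Gbp3 (0.404). Ifitm6 was closest to Stfa2 (0.239) and Ceacam10 (0.268), and Rsad2 to Vnn3 (0.434) and the neutrophil surface gene Cd177 (0.513). Ifitm2 was closest to the myeloid adaptor genes Tyrobp (0.106) and Fcer1g (0.125), Samhd1 to Agrn (0.132) and Tmem173 (0.135), and Ifitm1 to Scara5 (0.232) and Elf3 (0.254). Within the set, Ifitm6 and Rsad2 were each nearest to the other (0.647), as were Ifitm3 and Mx2 (0.279) and Ifitm2 and Samhd1 (0.321).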

How the data were processed

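Livers were grouped by the genotype in their labels. Per the labels and the study's methods, single-end reads were aligned to GRCm38 with GSNAP, and uniquely mapped reads were used. The counting tool, its use of strand and the annotation release are not given in the sources used here. The authors deposited a table per liver with raw read counts on the exons of each gene, the width of those exons in bases, and RPKM values, which divide the count by the width and by a read total. RPKM was used only to check that total (27742265 to 45570169), which exceeded the summed counts in every liver.

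Counts of all 11 livers were joined. Of 52636 genes, 52403 matched a symbol in the GENCODE annotation. Genes passing filterByExpr (minimum count 10) were scaled by TMM and fitted with genotype by edgeR 4.0.16 (glmQLFit, glmQLFTest; R 4.3.3), with p-values adjusted by Benjamini and Hochberg over 17243 genes and a threshold of 0.05. SE is the log2 fold change over the square root of F. The scripts were tested on simulated counts. Alternatives (19 settings) used DESeq2 1.42.0, limma 3.58.1 (voom), other filters, fewer livers or a replicate block. The study names limma. The filter kept all 10 genes.

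Named genes were all 10 genes, 2 fixed lists (relatives and interferon signalling) and the 2 genes closest to each, and markers were read from 9 lists. The neutrophil markers called, Gm45717, Xist and the targeted genes were named outside this rule, after their values were seen. One signalling gene is counted but not reported here by name. The genes and lists were chosen with earlier results of these data known. Floors of 3 counts cover counting error only, since reads were not tied to molecules.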

Additional observations from a re-analysis of the deposited data

How the results depend on the processing

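Over the single-liver omissions, the number of the 10 genes called ranged from 7 to 10 against WT, 3 to 10 against Tnfr1 KO and 3 to 9 against Casp8 Mlkl dKO for Casp8 Tnfr1 dKO livers, and was 0 to 0 in both other comparisons. The count against Tnfr1 KO was lowest without either Tnfr1 KO liver, and that against Casp8 Mlkl dKO without Casp8 Mlkl dKO replicate 2. For the interferon signalling list the ranges were 5 to 9, 3 to 7, 4 to 7, 0 to 1 (Casp8 Mlkl dKO against WT) and 0 to 0, where omitting Tnfr1 KO replicate 1 gave the 3 and omitting Casp8 Tnfr1 dKO replicate 3 the 1. With only the 2 genotypes compared in the fit, 3 genes and 2 signalling genes were called against Tnfr1 KO and 0 and 0 against Casp8 Mlkl dKO. Without both livers that stood apart, 10 genes were called against Casp8 Mlkl dKO and 3 between Casp8 Mlkl dKO and WT, and 13, 11, 11 and 4 signalling genes in the 4 comparisons with a double knockout (1 of them lower in each of the first 3). In these 4 comparisons 31.3%, 23.2%, 18.1% and 6.4% of all genes tested were called. Between Casp8 Mlkl dKO and WT, DESeq2 called 2 genes and 3 signalling genes (background 0.458% of genes called higher). No filter on low counts gave 1 signalling gene (0.0373%). DESeq2 gave no adjusted p for Rsad2 in any comparison, so its counts leave it out.

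Over all genes, 1000, 374, 285, 1 and 0 were called in the 5 comparisons, against 2364, 1269, 941, 90 and 0 by DESeq2, 486, 56, 11, 1 and 259 with only 2 genotypes, and 5314, 3931, 3067, 1086 and 115 without both livers. No filter on low counts gave 14, and DESeq2 size factors or a mean of at least 10 counts 3 each, between Casp8 Mlkl dKO and WT. Leaving out 1 liver gave 281 to 1674, 30 to 883, 83 to 564, 0 to 27 and 0. The cause was not tested.

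Without Casp8 Mlkl dKO replicate 1, and without both livers, the log2 fold change between Casp8 Mlkl dKO and WT turned to -0.16 for Ifitm2 and -0.46 for Ifitm6. Over the single-liver omissions these ran from -0.16 to 0.40 and from -0.46 to 1.43. Between Tnfr1 KO and WT small values changed sign in at least 1 omission, with ranges of -0.044 to 0.25 for Ifitm1, -0.080 to 0.083 for Ifitm2, -0.017 to 0.35 for Ifitm6, -0.15 to 0.25 for Rsad2 and -0.013 to 0.66 for Mx1. Apart from these and the replicate block, no direction of the 10 genes changed.

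The livers share replicate numbers across genotypes, but these did not pair them: correlations of same-numbered deviations ran from -0.297 to 0.275. With the replicate block, 9, 6, 7, 0 and 0 of the 10 genes and 6, 4, 4, 0 and 0 signalling genes were called, and 572, 189, 144, 0 and 0 of all genes. Between Tnfr1 KO and WT the block turned Ifitm2 to 0.014 and Rsad2 to -0.056.

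Low counts limit Ifi44, Mx1 and Mx2 in WT and Tnfr1 KO livers, and groups of 2 and 3 livers limit all values.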
